A study of Rattus norvegicus with 6 samples.

Results

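The phagocyte NADPH oxidase was followed here through 5 of its genes, Cybb, Cyba, Ncf1, Ncf4 and Rac2, out of 25399 genes listed in the count matrices. The genes were chosen by symbol, and every UMI (unique molecular identifier, 1 tagged RNA molecule) of the 5 was counted in neutrophils, monocytes, macrophages, microglia and all other cells. In the kept cells there were 80584 UMIs of Cybb (ENSRNOG00000003622), 314220 of Cyba (ENSRNOG00000013014), 32482 of Ncf1 (ENSRNOG00000001480), 43335 of Ncf4 (ENSRNOG00000006940) and 55180 of Rac2 (ENSRNOG00000007350).

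The oxidase transfers electrons from NADPH across a membrane onto oxygen and so makes superoxide, the source of hydrogen peroxide and other oxidants that phagocytes use against microbes. Its catalytic subunit gp91phox (Cybb, also called NOX2) sits in the membrane bound to p22phox (Cyba), which stabilises it. In resting cells the regulatory subunits wait in the cytosol, among them p47phox (Ncf1), the organizer that is phosphorylated on activation, and p40phox (Ncf4), which binds a phagosomal lipid. On activation they move to the membrane together with a GTP-bound Rac protein, which is Rac2 in neutrophils and can be Rac1 in other phagocytes. In the brain the complex is known from microglia and from blood-borne phagocytes that enter after injury, and loss of its subunits causes chronic granulomatous disease.

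The data were droplet single-cell RNA libraries (10x Genomics, 3′ chemistry) from brain tissue, made from Sprague Dawley rats at an age given as postnatal day 21; the title of the series places the infarcts in the pons. The 3 sham libraries came from animals labelled as sham, and the 3 infarction libraries from animals with pontine infarction. No allele, drug or time after infarction was given, and the labels did not state whether each library was 1 animal, so the p-values below speak only of how far these libraries varied. Of 38685 barcodes that passed filters, 37853 were kept after doublet removal, 5914, 6327 and 6543 in sham libraries 1 to 3 and 5873, 7255 and 5941 in infarction libraries 1 to 3. Library totals ranged from 56416475 to 69924334 UMIs, the median per kept cell from 7286 to 9562, and any pair of libraries shared 6 to 17 barcodes.

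Cell composition differed strongly between the groups. Smooth muscle-like cells numbered 7077 in the sham libraries (37.9% ± 6.1 of cells, SD, n = 3) and 0 in the infarction libraries, and neuron-like cells 224 and 3. Microglia-like cells numbered 3305 in sham and 3571 after infarction, and macrophage-like cells 378 and 4137. Neutrophil-like cells numbered 69 in sham (13, 44 and 12 per library) and 4430 after infarction (2051, 1405 and 974). A cluster led by Fcnb and Vcan, with 28 sham and 2828 infarction cells, carried 5 monocyte and 7 macrophage markers of the lists used. Its leading genes held more markers of another class than of macrophages, so it was not given a cell type name. It stands here in the place of monocyte-like cells. Further infarction clusters without a name were led by Mmp12 and RT1-Da (1149 cells), by Ccl17 and Clec9a (1352 cells) and by Siglech and Spib (370 cells).

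Stretches of sequence just upstream of the genes were matched by symbol for 3 of the 5 members, Cybb, Cyba and Ncf1 (RefSeq, build GRCr8); Ncf4 and Rac2 are named only. They are shown because Spi1 was among the genes most like Ncf1 and Ncf4 across classes (given at the end). Spi1 encodes the myeloid transcription factor PU.1, whose purine-rich site has the letters GAGGAA; capitals mark TTCCTC, the same letters read on the other strand. The window is the 250 bases before the annotated start, 5′ to 3′ on the gene's strand: Cybb chrX:16065066-16065315 (minus strand), Cyba chr19:67404215-67404464 (minus strand) and Ncf1 chr12:28121635-28121884 (plus strand).
Cybb: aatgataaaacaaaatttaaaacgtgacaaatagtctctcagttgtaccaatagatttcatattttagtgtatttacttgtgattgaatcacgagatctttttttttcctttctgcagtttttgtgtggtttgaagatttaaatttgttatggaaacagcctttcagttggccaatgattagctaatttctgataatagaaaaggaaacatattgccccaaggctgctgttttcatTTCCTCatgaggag
Cyba: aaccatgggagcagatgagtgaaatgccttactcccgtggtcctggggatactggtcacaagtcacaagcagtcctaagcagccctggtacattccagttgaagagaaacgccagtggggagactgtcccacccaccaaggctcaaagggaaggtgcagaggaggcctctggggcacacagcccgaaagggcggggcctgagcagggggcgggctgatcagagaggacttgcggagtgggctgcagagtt
Ncf1: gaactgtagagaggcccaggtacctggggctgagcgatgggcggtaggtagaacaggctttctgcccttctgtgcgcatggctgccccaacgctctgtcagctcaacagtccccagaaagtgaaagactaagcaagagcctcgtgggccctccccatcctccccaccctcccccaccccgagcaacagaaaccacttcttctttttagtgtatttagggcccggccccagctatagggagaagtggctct
The Cybb window held 1 match, 14 bases before the start, and the Cyba and Ncf1 windows held none on either strand. GAGGAA on either strand was present in 23.3% of 33469 rat promoter windows of this length, so a single match is common. The match is a description of the letters, and no binding was measured.

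Summed over all cells of a library, every member was higher after infarction. Levels are given as CPM, a gene's UMIs per 1000000 UMIs of the cells named, in libraries 1, 2 and 3 of each group. Cybb was at 20.8, 19.3 and 28.6 CPM in sham and 368, 359 and 512 after infarction, with a log2 difference of 4.64 ± 0.22 (SE, n = 3 and 3; edgeR quasi-likelihood test, Benjamini-Hochberg adjusted p = 2.14e-05). Cyba was at 169, 224 and 328 CPM in sham and 1323, 1471 and 1638 after infarction (log2 difference 3.09 ± 0.25, edgeR adjusted p = 1.11e-04). For both membrane subunits the lowest infarction library lay far above the highest sham library. Ncf1 went from 10.5, 24.1 and 38.0 CPM to 158, 145 and 157 (3.14 ± 0.45, edgeR adjusted p = 0.00119), and Ncf4 from 6.49, 12.4 and 18.1 CPM to 241, 219 and 207 (4.65 ± 0.40, edgeR adjusted p = 1.37e-04). Rac2 went from 30.4, 45.4 and 55.2 CPM to 267, 273 and 235 (3.04 ± 0.23, edgeR adjusted p = 8.99e-05). The groups did not overlap for any of the 5 genes, and sham library 1 was the lowest of all 6 for 4 of them, all but Cybb. With the test's threshold at an adjusted p of 0.05, 71.3% of 14613 genes passed in this comparison, 33.2% as higher and 38.1% as lower. The trimmed-mean (TMM) scaling of edgeR placed all log2 differences 0.466 above those of plain CPM here; without it 3243 genes were higher and 7542 lower, in place of 4850 and 5569, and the 5 members were still higher. In such sums, more cells of a type and more RNA per cell cannot be told apart.

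Most UMIs of the complex in sham libraries came from resident cells. Macrophage-like cells, 2.02% ± 0.25 (SD, n = 3) of sham cells, held 63.1% ± 9.0 of Cybb UMIs, and microglia-like cells held 21.3% ± 12.4. Microglia-like cells held the larger share of the other members: 74.8% of Ncf1, 52.6% of Ncf4, 49.0% of Rac2 and 47.4% of Cyba (means of 3 libraries). T or NK-like cells held 27.0% of sham Rac2 UMIs, and smooth muscle-like cells 14.9% of Cyba UMIs. Macrophage-like cells held 8.72% of Cyba UMIs, less than smooth muscle-like cells.

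After infarction the sources changed. Macrophage-like cells held 41.1% ± 11.3 and the Fcnb and Vcan cluster 35.4% ± 9.5 of Cybb UMIs, against 3.47% in microglia-like cells. Cyba UMIs came from macrophage-like cells (46.5%), microglia-like cells (17.6%) and the Fcnb and Vcan cluster (15.6%). Ncf1 UMIs came from macrophage-like cells (40.7%), the Fcnb and Vcan cluster (18.8%), microglia-like cells (14%) and neutrophil-like cells (9.97%). Ncf4 had the most even spread: macrophage-like cells held 21.8%, neutrophil-like cells 18.2%, microglia-like cells 17.1%, the Fcnb and Vcan cluster 14.8% and the Ccl17 and Clec9a cluster 12.8%. Neutrophil-like cells were 23.6% ± 10.0 of infarction cells but held only 4.76% of all UMIs, so their part of Ncf4 was larger than their part of the RNA. Rac2 UMIs came from microglia-like cells (23.8%), macrophage-like cells (20.6%) and the Ccl17 and Clec9a cluster (14.7%), with T or NK-like cells down to 4.02%.

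**Figure D1:**
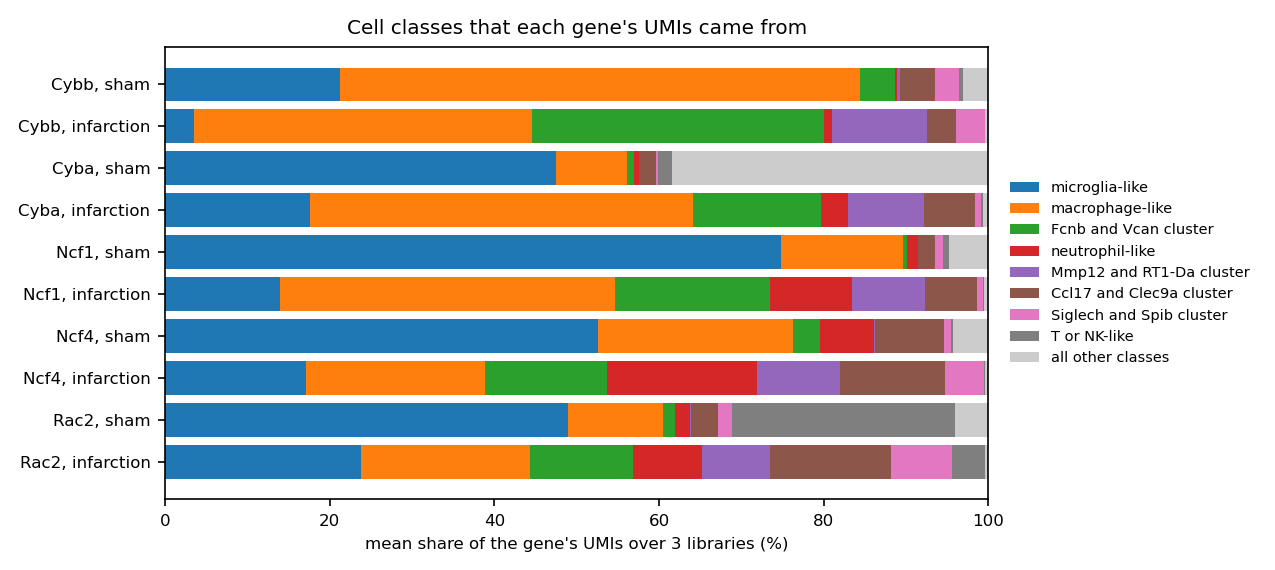
Mean share of each gene's UMIs (%, x axis, stacked to all UMIs of the gene) by cell class, the infarction bar below the sham bar, over 3 libraries a group. Microglia-like and macrophage-like cells fill most of the sham bars, and the infarction bars are divided among macrophage-like cells, the Fcnb and Vcan cluster, microglia-like cells, neutrophil-like cells and the smaller clusters, with 18.2% of Ncf4 UMIs from neutrophil-like cells.

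Levels per class showed that the 5 genes did not follow a single order. Classes were defined from the same counts, so these levels are a description with no test. Cybb after infarction was highest in the Fcnb and Vcan cluster (806, 868 and 1147 CPM) and in the Siglech and Spib cluster (mean 876 ± 83.5), whose ranges overlapped. The Mmp12 and RT1-Da cluster (489.7 ± 74.5) and macrophage-like cells (479.6 ± 96.0) followed and overlapped each other, and the Ccl17 and Clec9a cluster stood below them at 161 ± 8.58. Neutrophil-like cells (85.7, 57.2 and 71.7 CPM) and microglia-like cells (78.3, 45.3 and 97.8 CPM) overlapped endothelial-like cells at 83.3 ± 21.7. Endothelial cells are not phagocytes of this kind, with a sham value of 0.467 ± 0.808 CPM from 3 UMIs in 353 cells. Their infarction level is given for comparison only, and the source of its Cybb UMIs was not tested. Cybb in infarction neutrophil-like and microglia-like cells was not above the infarction endothelial-like level. In sham, Cybb was at 88.3, 22.7 and 51.4 CPM in microglia-like cells, above the sham endothelial-like value. So were sham neutrophil-like cells at 70.4, 50.4 and 88.0 CPM, from only 2, 5 and 4 UMIs.

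Cyba was the broadest member. Macrophage-like cells were highest after infarction (1949 ± 149.9 CPM), followed by the Fcnb and Vcan cluster (1470.0 ± 140.0), the Mmp12 and RT1-Da cluster (1399.6 ± 114) and microglia-like cells (1305 ± 78.3), these last 3 overlapping in sequence. Neutrophil-like cells were at 969, 1062 and 989 CPM, which overlapped the Ccl17 and Clec9a cluster at 1010.5 ± 64.8. Endothelial-like cells were at 494 ± 82.8 CPM after infarction and already at 287 ± 37.9 in sham, and sham pericyte-like cells were at 223 ± 21.8 and smooth muscle-like cells at 74.7 ± 6.33. Cyba was thus measured outside blood-derived cells in sham, where Cybb in smooth muscle-like cells was at 0.201 ± 0.105 CPM. The product of Cyba also partners NOX1, NOX3 and NOX4; in the sums over all cells the genes Nox3 and Nox4 were too low to be tested.

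The cytosolic subunits were highest in neutrophil-like cells. Ncf1 was at 327, 318 and 320.0 CPM in infarction neutrophil-like cells, above the Fcnb and Vcan cluster (174, 193 and 195) and macrophage-like cells (181, 174 and 176), which overlapped each other. Microglia-like cells (109.6 ± 9.56) and the Ccl17 and Clec9a cluster (109.5 ± 10.2) were lower, and endothelial-like cells were at 32.0 ± 6.52. Ncf4 was at 820, 868 and 977 CPM in neutrophil-like cells, followed without overlap by the Siglech and Spib cluster (516 to 709) and the Ccl17 and Clec9a cluster (318 ± 11.9). The Mmp12 and RT1-Da cluster (229 ± 13.2), the Fcnb and Vcan cluster (217 ± 21.9) and microglia-like cells (195 ± 7.62) overlapped in turn, and macrophage-like cells were below them at 134 ± 8.72. Endothelial-like cells held 46.3 ± 14.6 CPM of Ncf4, under every phagocyte class.

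Rac2, the GTPase of blood cells, was highest outside the phagocytes. T or NK-like cells (1138 ± 25.6 CPM) and the Siglech and Spib cluster (1112 ± 127) overlapped at the top after infarction. Neutrophil-like cells (388, 527 and 546) overlapped the Ccl17 and Clec9a cluster (423 ± 64.7), microglia-like cells were at 314 ± 20.8 and macrophage-like cells at 151 ± 13.6. Among classes with at least 20 cells in every sham library, which leaves out neutrophil-like cells, the order was T or NK-like cells (1050.5 ± 137), macrophage-like cells (308 ± 73.2) and microglia-like cells (217 ± 20.7), with no overlap between neighbours. The 69 sham neutrophil-like cells were at 669, 716 and 1144 CPM, above macrophage-like cells and overlapping T or NK-like cells. Set against its ubiquitous relative Rac1 in the same cells, Rac2 had 495 UMIs per 100 of Rac1 in infarction T or NK-like cells, 153 in neutrophil-like cells, 78.2 in microglia-like cells and 40.5 in macrophage-like cells. The sham values were 679 in T or NK-like cells, 63.1 in microglia-like cells and 74.8 in macrophage-like cells, so this ratio was lower after infarction in macrophage-like cells and higher in microglia-like cells.

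**Figure D2:**
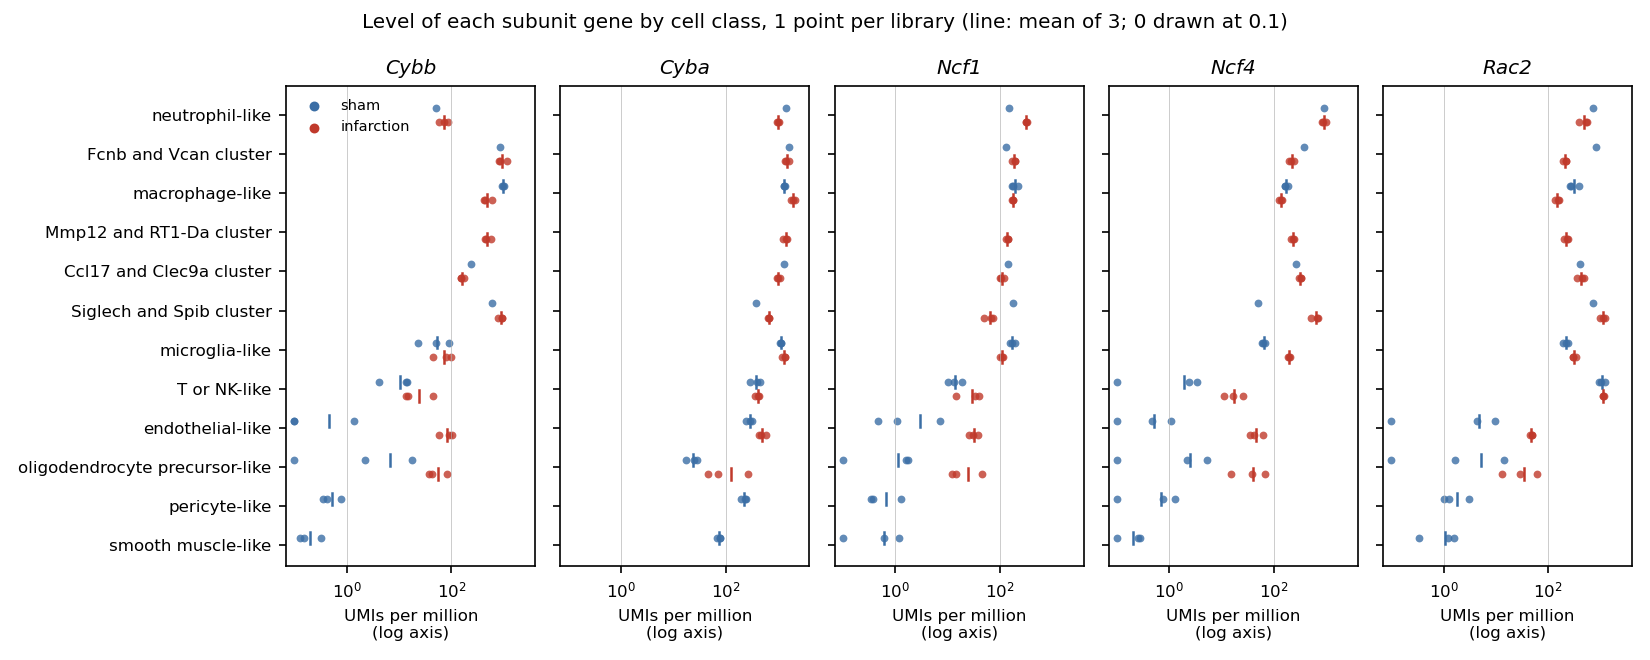
CPM of each of the 5 genes (log axis, with 0 drawn at 0.1) in 12 cell classes, 1 point per library with at least 20 cells of the class and a line at the mean of 3 libraries, sham and infarction apart. Among infarction means, Ncf1 and Ncf4 peak in neutrophil-like cells (322 and 888 CPM), Cybb in the Fcnb and Vcan cluster (941 CPM) and Rac2 in T or NK-like cells (1138 CPM). The mean of Cybb in sham macrophage-like cells was 968 CPM.

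In neutrophil-like cells, the cells best known for this oxidase, the cytosolic genes Ncf4 and Ncf1 were high while Cybb was low. Macrophage marker genes in their sums were at 317 to 776 CPM in sham and 3858 to 4759.8 after infarction, and their part in these levels was not tested. Shares of cells were compared after thinning every cell to 1000 UMIs, since the median depth of infarction neutrophil-like cells was 1613 to 2202 UMIs per library and that of macrophage-like cells 13123 to 16959; 260 shallower infarction neutrophil-like cells were left out. Ncf4 was then present in 55.4% ± 3.6 of neutrophil-like cells (SD, n = 3; 73.4% before thinning), against 3.62% ± 1.71 of endothelial-like cells. Cybb was present in 5.71% ± 0.97 of neutrophil-like cells (9.10% before thinning), within the range of endothelial-like cells (1.49 to 8.33%). Cybb was present in 53.8% ± 4.7 of Fcnb and Vcan cells and 37.0% ± 5.3 of macrophage-like cells after thinning, and in 95.5% and 93.1% before it. There were thus 7.16 ± 1.73 Cybb UMIs per 100 of Cyba in neutrophil-like cells, 63.6 ± 6.2 in the Fcnb and Vcan cluster and 24.5 ± 3.3 in macrophage-like cells. At least 3 of the 5 members were found together in 24.3% ± 1.9 of thinned neutrophil-like cells, 23.1% ± 5.0 of Fcnb and Vcan cells and 0.926% of endothelial-like cells.

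The few sham neutrophil-like cells did not allow the planned test, which needed 20 cells in every library. With the minimum at 5 cells, all 6 libraries entered, and none of the 5 members passed (edgeR; 21.1% of 4498 genes did, 14.1% as higher and 6.96% as lower). Ncf4 was at 493, 918 and 770.2 CPM in sham, which overlapped the infarction values, with a log2 difference of 0.46 (edgeR adjusted p = 0.321). Rac2 was at 669, 716 and 1144 CPM in sham, above the infarction libraries, with a log2 difference of -0.58 (edgeR adjusted p = 0.181). Cybb was at 70.4, 50.4 and 88.0 CPM in sham, so it was low in neutrophil-like cells of both groups. The log2 differences of Cybb, Cyba and Ncf1 were 0.40, -0.42 and 0.45 (edgeR adjusted p = 0.61, 0.376 and 0.382). With 12 to 44 sham cells a library, these values have little depth behind them. The Fcnb and Vcan cluster held 4, 22 and 2 sham cells and was not tested.

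Microglia-like cells changed the makeup of the cytosolic subunits after infarction: Ncf4 rose 3.09-fold in CPM while Ncf1 fell. Of the 5 members 3 rose (Cyba, Ncf4, Rac2), 1 fell (Ncf1) and Cybb did not pass, where 64.0% of 10449 genes passed, 32.3% as higher and 31.6% as lower. The median log2 difference of the 5 was 0.51, against -0.02 over all genes. Ncf4 was at 61.8, 60.2 and 67.4 CPM in sham and at 202, 187 and 196 after infarction, a log2 difference of 1.60 ± 0.08 (edgeR adjusted p = 1.07e-07). Every infarction library was far above every sham library, and the thinned share of cells with Ncf4 was 5.78% ± 1.18 in sham and 15.4% ± 0.40 after infarction (25.6% and 61.6% before thinning). Endothelial-like cells also differed in Ncf4, at 1.08, 0.467 and 0 CPM in sham and 34.8, 62.8 and 41.3 after infarction. What this level adds to the microglia-like values was not tested. Ncf1 was at 157, 193 and 169 CPM in sham and at 112, 99.1 and 118 after infarction, a log2 difference of -0.69 ± 0.10 (edgeR adjusted p = 1.24e-04). The groups did not overlap, and the thinned share of cells with Ncf1 was 13.9% ± 0.82 in sham and 10.4% ± 0.87 after infarction. Microglia-like cells thus held 36.8 ± 4.8 Ncf4 UMIs per 100 of Ncf1 in sham and 178 ± 11.4 after infarction, while macrophage-like cells held 89.7 and 75.8.

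The other members moved less in microglia-like cells. Rac2 was at 237, 218 and 196 CPM in sham and 301, 338 and 303 after infarction, with no overlap (log2 difference 0.52 ± 0.09, edgeR adjusted p = 5.02e-04). Cyba was at 1146, 1156 and 1098 CPM and at 1215, 1351 and 1350.2 (0.18 ± 0.07, edgeR adjusted p = 0.0353), the smallest of the changes that passed. Its call was lost in 9 of 20 alternatives. Cybb was at 88.3, 22.7 and 51.4 CPM in sham and 78.3, 45.3 and 97.8 after infarction, overlapping widely (0.51 ± 0.58, edgeR adjusted p = 0.491). In the same sums, macrophage marker genes went from 114 to 164 CPM in sham to 8801 to 14166 after infarction, 13 of 15 of them higher without overlap. Microglia markers went from 23586 to 27919 CPM to 12982 to 15314, neutrophil markers from 50.8 to 67.4 CPM to 108 to 640, and smooth muscle markers from 942 to 1193 CPM to 3.27 to 5.37. Their part in the results was not tested.

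Different clusters made up most microglia-like cells in the groups: one led by Tmem119 and P2ry12 held 2359 sham and 254 infarction cells, and one led by Ccl4 and Gpr84 held 110 and 1368. A cluster of shallow cells held 814 and 1317, and a cycling cluster with Mki67 and Top2a held 22 and 632. Ncf4 was higher after infarction within each of the 3 clusters that could be tested, with log2 differences of 1.03 in the Tmem119 and P2ry12 cluster, 1.04 in the Ccl4 and Gpr84 cluster and 1.43 in the shallow cluster (edgeR adjusted p = 1.73e-04, 0.00189 and 8.3e-08). Ncf1 was lower within each, by -0.44, -1.19 and -1.18 (edgeR adjusted p = 0.0276, 2.69e-05 and 5.38e-06). In the Ccl4 and Gpr84 cluster, Ncf4 was at 51.3, 32.3 and 92.5 CPM in sham and 191, 170 and 187 after infarction. These 2 genes thus also differed within clusters of the same name, though those clusters were not alike in the 2 groups. Macrophage marker genes in the Tmem119 and P2ry12 cluster were at 87.4 to 107 CPM in sham and 795 to 1654 after infarction. In the Ccl4 and Gpr84 cluster they were at 267 to 570 CPM and 13482 to 18570. The shallow cluster had 159 to 847 CPM and 7517 to 13365. The part of these markers in the change was not tested. Rac2 did not pass within any of the 3 (0.33, 0.29 and 0.17; edgeR adjusted p = 0.0599, 0.227 and 0.524), and neither did Cyba (0.04, -0.05 and 0.19). These within-cluster fits were added after the data were seen and rest on as few as 11 cells in a library (Ccl4 and Gpr84 cluster, sham libraries 1 and 2).

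**Figure D3:**
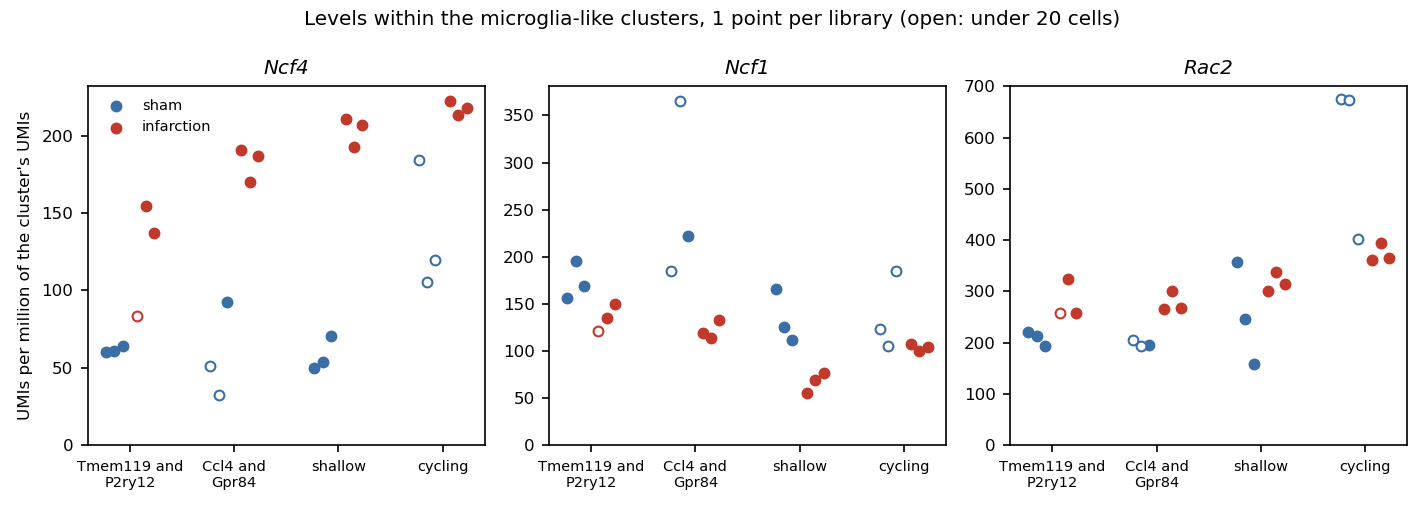
CPM of Ncf4, Ncf1 and Rac2 in 4 clusters of microglia-like cells, 1 point per library, with open points for fewer than 20 cells. Ncf4 in infarction libraries (137 to 223 CPM where at least 20 cells were present) sits above sham in each cluster with cells of both groups, and Ncf1 in the shallow cluster falls from 111 to 166 CPM in sham to 54.9 to 76.8.

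Macrophage-like cells showed the membrane subunits moving apart: Cyba rose and Cybb fell. The 378 sham macrophage-like cells all fell into the Lyve1 and Mrc1 cluster, named after its leading genes, markers of macrophages at brain borders and vessels. After infarction that cluster held 166 cells, while one led by Apoc1 and Gpnmb held 3728 and one led by Mx1 and Cxcl10 held 243. Of the 5 members 1 rose and 2 fell (56.4% of 10098 genes passed, 28.9% as higher and 27.4% as lower). Cybb was at 1020.2, 911 and 971 CPM in sham and 417, 432 and 590.1 after infarction, a log2 difference of -0.60 ± 0.13 (edgeR adjusted p = 0.00184), which was -0.93 without infarction library 3. Cyba was at 1389, 1296 and 1322 CPM and at 1789.5, 1971 and 2087 (0.96 ± 0.09, edgeR adjusted p = 2.28e-06). Neither gene's groups overlapped, and Cybb UMIs per 100 of Cyba were 72.4 ± 1.8 in sham and 24.5 ± 3.3 after infarction.

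Rac2 also fell in macrophage-like cells, from 392.4, 258 and 275 CPM to 156, 161 and 135, with no overlap (-0.62 ± 0.15, edgeR adjusted p = 0.00501); sham library 1 was the highest, and without it the difference was -0.38 (edgeR adjusted p = 0.0192). Ncf1 was at 181, 225 and 168 CPM and at 181, 174 and 176 (0.30 ± 0.12, edgeR adjusted p = 0.0519), and without sham library 2 it passed at 0.51 (edgeR adjusted p = 0.0036). Ncf4 was at 164, 186 and 162 CPM and at 125, 142 and 135 (0.06 ± 0.11, edgeR adjusted p = 0.632). The edgeR differences stand 0.415 above those of plain CPM here, because the trimmed-mean scaling shifted all genes by that much. Without it Ncf4 was lower (-0.35, edgeR adjusted p = 0.0128), Ncf1 was at -0.12 (edgeR adjusted p = 0.390), and Cybb (-1.01), Cyba (0.54) and Rac2 (-1.03) passed in the same direction. The split of all genes moved from 2921 higher and 2771 lower to 1897 and 4159. Markers of other cell types moved in the same sums. Microglia markers were at 14739.5 to 16722 CPM in sham and 882 to 1306 after infarction, 11 of 15 of them lower without overlap, and dendritic cell markers at 1567 to 1957 and 190.0 to 243. Smooth muscle markers were at 1717 to 1821 CPM in sham and 1.09 to 11.7 after infarction. Monocyte markers were at 84.0 to 106 CPM in sham and 1580.5 to 2221 after infarction, and neutrophil markers at 17.3 to 38.6 and 171 to 261. The part of these markers in the result was not tested.

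Within the Lyve1 and Mrc1 cluster alone, none of the 5 members passed, where 25.8% of 5912 genes did, 13.6% as higher and 12.1% as lower. Cybb in infarction cells of that cluster was at 683, 659 and 962 CPM (-0.30 ± 0.16, edgeR adjusted p = 0.161), and without infarction library 3 the difference was -0.46 (edgeR adjusted p = 0.048). Cyba was at 1559, 1555 and 1425 CPM (0.22 ± 0.14, edgeR adjusted p = 0.266), and Ncf1, Ncf4 and Rac2 had differences of -0.21, 0.10 and 0.18 (edgeR adjusted p = 0.382, 0.688 and 0.527). The Apoc1 and Gpnmb cells held the lowest Cybb of the infarction macrophage clusters, at 395, 418 and 548 CPM, against 641, 728 and 971 in the Mx1 and Cxcl10 cells. They also held the lower Ncf4, at 119, 139 and 131 CPM against 205, 208 and 170, and Cyba overlapped between them (1807, 1988 and 2088 against 1649, 1798 and 2197). The change in macrophage-like cells as a class thus compared mostly different clusters in the groups.

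**Figure D4:**
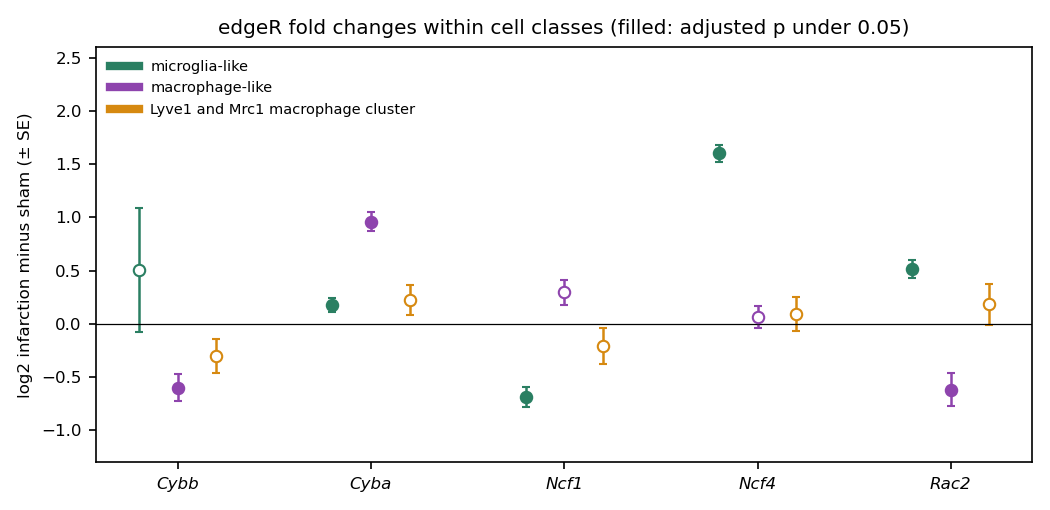
Log2 difference of infarction minus sham (edgeR, bars are SE, 3 libraries a group) for the 5 genes in microglia-like cells, macrophage-like cells and the Lyve1 and Mrc1 cluster, filled where the adjusted p is under 0.05. Ncf4 is filled in microglia-like cells (1.60) and open in macrophage-like cells (0.06), Cyba reaches 0.96 in macrophage-like cells, and all 5 points of the Lyve1 and Mrc1 cluster are open.

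The infarction effect differed between macrophage-like and microglia-like cells for 4 of the 5 genes, where 34.6% of 11340 genes differed, 18.1% with the higher effect in macrophage-like cells and 16.5% with the lower. On the signed log2 scale the effect in macrophage-like cells was above that in microglia-like cells for Cyba (0.96 and 0.18; difference of the log2 effects 0.86 ± 0.08, edgeR interaction with library as a block, adjusted p = 2.88e-08) and Ncf1 (0.30, which did not pass, and -0.69; difference 1.07 ± 0.11, edgeR adjusted p = 3.24e-07). It was below that in microglia-like cells for Ncf4 (0.06, which did not pass, and 1.60; difference -1.46 ± 0.13, edgeR adjusted p = 3.03e-08) and Rac2 (-0.62 and 0.52; difference -1.03 ± 0.11, edgeR adjusted p = 6.88e-07). Cybb did not pass (-1.08 ± 0.54, edgeR adjusted p = 0.216). The 4 calls were kept with any library left out and without TMM scaling, though without it 755 genes had the higher and 3698 the lower effect in macrophage-like cells, in place of 2050 and 1874.

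T or NK-like cells, which are lymphoid, overlapped in Rac2 between the groups, at 1200.4, 932 and 1019 CPM in sham and 1133, 1115 and 1165 after infarction (0.17 ± 0.15, edgeR adjusted p = 0.576). None of the 3 members tested there passed, where 7.57% of 4692 genes did, 4.86% as higher and 2.71% as lower; Cyba had a difference of 0.16 (edgeR adjusted p = 0.622) and Ncf1 of 1.06 (edgeR adjusted p = 0.133). Cybb and Ncf4 were too low to be tested. Ncf4 was at 0, 3.39 and 2.34 CPM in sham and at 16.5, 25.2 and 10.9 after infarction, below the 46.3 of infarction endothelial-like cells.

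Genes around the oxidase were taken from 6 lists of 64 genes in all. In the sums over all cells 33.2% of all genes were higher and 38.1% lower, with a median log2 difference of -0.13. There 11 of 11 tested genes of the receptor list were higher (median 3.42), Fcgr2b and Tyrobp among them. So were 7 of 8 regulators of transcription, with none lower (2.34). The list of kinases and exchange factors, which also held Arhgdia, Arhgdib and Arhgap25, had 10 of 16 higher and 1 lower (1.014). The list of assembly partners, with Nrros in it, had 4 of 6 higher and 2 lower (1.15). Downstream and other oxidant enzymes had 5 of 8 higher and 1 lower (1.85). Other NADPH oxidases and their partners had 0 of 2 higher and 1 lower, the partner gene Duoxa1 (-0.86). Within classes the counts below stand beside 32.3% of all genes higher and 31.6% lower in microglia-like cells (median -0.02), and 28.9% and 27.4% in macrophage-like cells (median -0.01). In the list of assembly partners and chaperone, 1 of 6 tested genes rose and 2, Cybc1 and Nrros, fell in microglia-like cells (median -0.28). Nrros is a negative regulator of the oxidase and not an assembly partner. Cybc1, the chaperone of the gp91phox and p22phox pair, was at 178, 174 and 186 CPM in sham and 110.2, 119.5 and 109 after infarction (-0.69 ± 0.07, edgeR adjusted p = 1.78e-05), but did not pass within single microglia clusters. Rac1 differed by 0.20 there (edgeR adjusted p = 0.0163), a call lost without sham library 2 or 3. In macrophage-like cells 2 of 6 rose and 2, Nrros and Clcn3, fell (median -0.23). Rap1a, a small GTPase found with the cytochrome, had a difference of 0.96 there, and Rac1 one of 0.26 (edgeR adjusted p = 0.0218) that was -0.15 without the trimmed-mean scaling.

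The list of kinases and exchange factors that activate the oxidase also held Arhgdia and Arhgdib, which hold Rac proteins inactive, and Arhgap25, which switches Rac off. Its genes went different ways in the sums over all cells and within classes. Arhgdib and Arhgap25 were among the genes that fell in microglia-like and in macrophage-like cells, and Arhgdia among those that rose in microglia-like cells. In microglia-like cells 2 of 14 rose and 9 fell, with a median log2 difference of -0.55; Pik3cg, a leukocyte phosphoinositide 3-kinase, and Syk, a kinase downstream of immune receptors, each had a difference of -0.79. In macrophage-like cells 0 of 14 rose and 10 fell (median -0.76). Prkcb, a protein kinase C that phosphorylates p47phox, was at 11.97, 8.17 and 16.2 CPM in sham and 0.423, 0.244 and 0.277 after infarction (-4.83 ± 0.45, edgeR adjusted p = 2.58e-06). Pik3cd (-2.70), Pik3cg (-1.66) and Mapk14 (-0.96) fell as well. Within the Lyve1 and Mrc1 cluster 0 of 11 rose and 3 fell, Arhgap25 among them (median -0.33). Of all genes there, 25.8% passed, 13.6% as higher and 12.1% as lower.

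The list of receptors that trigger the oxidase also held Fcgr2b, an inhibitory Fc receptor, and Tyrobp, an adaptor. Its genes moved in both directions. In microglia-like cells 2 of 10 rose and 3 fell (median -0.09): Ptafr, the receptor for platelet-activating factor, was at 220.4, 229 and 224 CPM and at 63.3, 69.2 and 78.1 (-1.70 ± 0.08, edgeR adjusted p = 1.18e-07), and the endotoxin receptor gene Tlr4 fell (-1.27). Fcgr3a, an Fc receptor for IgG, rose there (0.87) and fell in macrophage-like cells from 958, 489 and 739.5 CPM to 66.2, 41.4 and 59.9 (-3.29 ± 0.30, edgeR adjusted p = 1.73e-04). In macrophage-like cells 5 of 10 rose, with Fcgr2b (1.28) and Tyrobp (0.57) among them, and 3 fell (median 0.20). Itgb2, the integrin beta chain of leukocytes, went there from 94.4, 78.2 and 71.0 CPM to 242, 238 and 205 (1.91 ± 0.13, edgeR adjusted p = 2.84e-07).

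Among regulators of transcription, Spi1 fell in microglia-like cells from 308, 279 and 267 CPM to 199, 206 and 206 (-0.50 ± 0.07, edgeR adjusted p = 1.59e-04), as did Cebpa (-1.38). In all, 4 of 8 rose and 3 fell there (median -0.04), and 3 rose and 3 fell in macrophage-like cells (median -0.17). In those, Cebpb (1.68) and Cebpe (4.33), myeloid factors of the same family as Cebpa, rose, and Irf1 (-2.16) and Runx1 (-1.24) fell. The list of enzymes downstream of superoxide also held other oxidant enzymes, with Hmox1 and Nos2 in it. Of its genes 3 of 7 rose and 1 fell in microglia-like cells (median 0.37). In macrophage-like cells 4 of 8 rose, Hmox1 among them, and 1 fell (median 1.86). Sod2, the mitochondrial superoxide dismutase, was at 52.1, 50.4 and 72.6 CPM and at 584, 471 and 372 in microglia-like cells (2.99 ± 0.23, edgeR adjusted p = 8.12e-05), and differed by 3.28 in macrophage-like cells. Prdx1, a peroxide-reducing peroxiredoxin, differed by 2.38 and 2.78, and Hmox1, the haem-degrading oxygenase, rose in macrophage-like cells from 215, 210.0 and 225 CPM to 903, 598 and 665 (2.15 ± 0.15, edgeR adjusted p = 5.37e-07).

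The genes whose levels were most like each member were found over 83 sums of a class in a library, from 21 classes that share libraries, as Pearson correlations of log2(CPM + 5) among 12448 genes, given with no test. For Cybb they were Cd68 (0.886), Slamf9 (0.875), Unc93b1 (0.867), Ncf4 (0.856) and Ncf1 (0.851). For Cyba they were Arpc1b (0.920), Fxyd5 (0.876), Tgfb1 (0.872), Arpc3 (0.863) and Arhgdib (0.843). Cybb therefore had 2 other members of the complex among its nearest genes, and Cyba had none. For Ncf1 they included Spi1 (0.954), Plek (0.929), Fcer1g (0.929) and Alox5ap (0.920), and for Ncf4 Fgr, Themis2 (0.921), Tyrobp (0.905), Spi1 (0.901) and Ncf1 (0.899). For Rac2 they were pan-leukocyte genes: Ptprc (0.980), Coro1a (0.959), Cd37 (0.958), Hcls1 (0.958) and Cd53 (0.957).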

How the data were processed

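Single-cell UMI counts per gene and barcode were deposited for 6 rat brain libraries (3 sham, 3 infarction); Cell Ranger 3.1.0, CASAVA 1.8 and Seurat 2.3.4 are named as the tools behind them, per the submitters' processing notes. The genome build is not given in the sources used here. Filters kept barcodes holding 500 or more UMIs from 200 or more genes with a mitochondrial share up to 20%, and 1.74 to 2.79% per library with a Scrublet score over 0.25 were removed. That score was set by hand, since the automatic threshold marked almost no cells in the infarction libraries. Cells were clustered (scanpy 1.11.5, Python 3.11.15, Leiden resolution 1.0), giving 31 clusters, 23 of them named from marker lists.

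UMIs were summed per library and class and tested with edgeR 4.0.16 (R 4.3.3, TMM, filterByExpr, quasi-likelihood), with Benjamini-Hochberg adjustment over all genes of the class and at least 20 cells in every library. Same-numbered libraries had weak correlations of deviations (from -0.0579 to 0.111), so the main fit has no block. In microglia-like cells, though, the same-numbered pairs (0.0271 to 0.0969) all lay above the other pairs (-0.102 to 0.0208). Fits with a replicate block are given below. On simulated data, 2-fold changes were recovered in 14.6 to 84.7% and 4-fold changes in 88.1 to 100% of genes across the comparisons. Only a small share of genes was changed there, up or down at random, with a common spread for all genes. The real comparisons had far more genes called, so these rates do not cover the shifts by scaling seen in them. Members, lists and clusters were chosen with earlier results of these data known. All 5 members are named in every comparison, and of the related lists the called genes with the smallest p, up to 4 per list and class, with Rac1 always; some genes are not reported here. Alternatives were DESeq2 1.42.0, other scaling, no filter, other cell filters, other clusters and each library left out; fits within single microglia clusters and without TMM were added after seeing the data. Intervals are SDs or SEs over libraries. Sequences were read from RefSeq tables.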

Additional observations from a re-analysis of the deposited data

Results flagged for a closer look

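The infarction effect differed between macrophage-like and microglia-like cells for 4 of the 5 oxidase genes, by the edgeR interaction test of the difference itself. The difference in log2 effect, macrophage-like minus microglia-like, was 0.86 for Cyba (0.83 to 0.91 with a library left out) and 1.07 for Ncf1 (1.0 to 1.16). It was -1.46 for Ncf4 (-1.55 to -1.31) and -1.03 for Rac2 (-1.11 to -0.87). Without trimmed-mean scaling the differences were 0.34, 0.55, -1.98 and -1.55. Most macrophage-like cells of the 2 groups were in different clusters, so cluster and group cannot be told apart in that class.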

How the results depend on the processing

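The Ncf4 and Ncf1 calls in microglia-like cells were kept in 20 of 20 alternatives each, and Rac2 in 17 of 20; the cause of the changes below was not tested. With a replicate block Cyba in microglia-like cells had 0.18 (edgeR adjusted p = 0.0595), and the block changed no other call of a member; 3378 genes were then higher and 3261 lower. Leaving out a library gave Cyba 0.16 to 0.235, and leaving out the shallow cluster 0.13. With only the Tmem119 and P2ry12, the Ccl4 and Gpr84 or the shallow cluster, Cyba had 0.041, -0.052 and 0.19, Rac2 0.33, 0.29 and 0.17, and Cybb -0.016 and -1.31 in the last 2; 795, 1192 and 1063 genes were higher and 685, 837 and 1005 lower. In the shallow cluster Irf1 had 0.16, Nrros 0.093 and Rac1 -0.10. In macrophage-like cells Ncf1 had 0.33 with DESeq2, 0.32 with RLE scaling, -0.12 without TMM, 0.42 without a filter, 0.38 with clusters made without the members and 0.13 to 0.51 with a library left out. Ncf4 there had -0.35 without TMM, -0.089 with at most 10% mitochondrial UMIs and -0.14 to 0.21 with a library left out, and Rac1 had -0.15 without TMM. Without TMM 1897 genes were higher and 4159 lower there, and 755 and 3698 differed between the classes, against 2050 and 1874. In the Lyve1 and Mrc1 cluster, leaving out a library gave Cybb -0.46 to -0.19 and Rac2 -0.031 to 0.40, and DESeq2 called 508 higher and 311 lower genes, against 805 and 718. In T or NK-like cells Ncf1 had 1.39 with doublets kept (edgeR adjusted p = 0.0101); genes called were 369 and 230 without a filter, 149 to 224 higher and 83 to 127 lower with a library left out, 79 lower with DESeq2 and 220 lower with doublets kept. Thinned to 2000 UMIs, shares of cells with Cybb were 8.96% (neutrophil-like), 73.1% (Fcnb and Vcan), 57.7% (macrophage-like) and 8.72% (microglia-like), and with Ncf4 72.3, 33.3, 22.8 and 28.9%. The Fcnb and Vcan comparison (2 cells in a library) and further neutrophil alternatives were not run.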
